A study of Mus musculus with 12 samples.

Results

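Metabotropic glutamate receptors and the Homer proteins that anchor them were followed in the mouse hippocampus through 9 genes, *Grm2*, *Grm3*, *Grm4*, *Grm5*, *Grm7* and *Grm8* for the receptors and *Homer1*, *Homer2* and *Homer3* for the scaffolds. They were chosen by gene symbol and matched to the Entrez gene IDs of the count table, where they are 9 of 27179 gene IDs. The other receptor genes of the family are not analysed here. RNA of the hippocampus had been sequenced from 12 mice aged 3 months, with 3 female WT mice, 3 female *Nell-1+/6R* mice, 3 male WT mice and 3 male *Nell-1+/6R* mice. *Nell-1+/6R* mice carry the 6R allele, a loss-of-function mutation of *Nell1* induced with the mutagen ENU, on 1 chromosome only, since mice with 2 mutant copies die at birth. The allele is present in all tissues throughout life, and the WT mice were littermates without it. The titles of the WT samples also hold the abbreviation for heterozygous, while their genotype fields give WT. The question put to these genes was whether their RNA differed between *Nell-1+/6R* and WT mice, in both sexes or in 1, and how much it varied from mouse to mouse.

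Metabotropic glutamate receptors are G protein-coupled receptors that adjust transmission at glutamate synapses more slowly than the receptor channels do. *Grm5* encodes a group I receptor, which works through Gq, phospholipase C and release of stored calcium and is abundant on the spines of hippocampal pyramidal cells. *Grm2* and *Grm3* encode group II receptors and *Grm4*, *Grm7* and *Grm8* group III receptors, all of which work through Gi/o, lower cyclic AMP and mostly restrain transmitter release. Homer proteins bind the tail of group I receptors and link them to inositol trisphosphate receptors and to the Shank scaffold, and a short product of *Homer1* that lacks the linking domain is made after neuronal activity and loosens these links. The counts are per gene and do not separate the short from the long products of *Homer1*.

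The counts of a mouse summed to between 10834905 and 16016317. *Nell1*, the mutated gene, was at 36.5 ± 4.55 CPM in WT (read counts scaled to a common library total, CPM, mean ± SD, n = 6) and at 19.1 ± 1.77 CPM in *Nell-1+/6R* animals (n = 6), with no overlap between the genotypes, as the labels give them. Defining markers of hippocampal principal neurons were high in every mouse, with a summed level of 10121.1 to 13773.7 CPM over 5 genes. Several libraries stood apart in tissue content. In female *Nell-1+/6R* replicate 3 the cerebellar granule cell gene *Cbln3* was at 39.5 CPM against 0.163 to 0.792 CPM in the other mice, and the summed level of 4 choroid plexus genes ranged from 38.6 to 5035.7 CPM over the 12 mice, with none of the 4 at an unadjusted p under 0.05 for genotype (edgeR). *Slc17a6*, a marker of thalamic and habenular neurons, was lower in *Nell-1+/6R* mice (7.6 ± 1.72 against 17.8 ± 2.69 CPM, edgeR adjusted p = 0.0035, log2 fold change -1.23). It was the 1 of 7 markers of thalamus and habenula that passed, and none of the others had an unadjusted p under 0.05 (edgeR). Over the list 6 estimates were lower and 1 higher with a median of -0.19. The summed level, which includes *Slc17a6* itself, was 61.7 to 98.8 CPM in the WT and 55.5 to 70.2 CPM in the *Nell-1+/6R* group. The cause of the lower *Slc17a6* was not tested. Of 5 leptomeningeal markers, 4 had a lower estimate at an unadjusted p under 0.05 (edgeR, adjusted p = 1 for each), the collagens *Col1a1* (-0.93, unadjusted p = 0.00203) and *Col1a2* (-1.09, unadjusted p = 0.00446), the matrix protein *Lum* (-0.59, unadjusted p = 0.0406) and the transporter *Slc6a13* (-1.08, unadjusted p = 0.0201). Their list had a median of -0.93, and its summed level was 45.2 to 106.5 CPM in the WT and 22.6 to 65.6 CPM in the *Nell-1+/6R* group. All 7 markers of GABAergic interneurons had a higher estimate, 2 of them at an unadjusted p under 0.05 (edgeR, adjusted p = 1 for each), the neuropeptide *Sst* (0.20, unadjusted p = 0.0187) and the calcium buffer *Pvalb* (0.29, unadjusted p = 0.0176). *Pvalb* was highest, at 45.7 CPM, in female *Nell-1+/6R* replicate 3. In males it was at 24.2 to 30.1 CPM in the WT and 26.8 to 28.9 CPM in the *Nell-1+/6R* group (interaction with sex, edgeR, unadjusted p = 0.0144, adjusted p = 0.987). The interneuron list had a median of 0.07, with a summed level of 538.6 to 618.9 CPM in the WT and 565.7 to 671.6 CPM in the *Nell-1+/6R* group.

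All 9 genes were expressed well enough to be tested. Read counts divided by the length of the exons (CPM per kilobase) allow an order between genes. *Grm2* had the highest level, at 18.2 ± 2.6 CPM per kilobase (SD, n = 12), followed by *Grm3* at 14.8 ± 0.948, and although their ranges overlapped *Grm2* was the higher in each of the 12 mice. *Homer3* (11.7 ± 1.78) and *Grm5* (11.5 ± 3.9) did not differ beyond their spread, and *Homer3* was the higher of them in 6 of 12 mice. *Homer2* was at 8.27 ± 1.49, *Grm7* at 6.97 ± 0.936 and *Homer1* at 4.57 ± 0.978 CPM per kilobase. Each of these 7 genes overlapped in range with its neighbour in the order. *Grm4*, at 2.3 ± 0.39, lay below every value of *Homer1*, and *Grm8*, at 0.652 ± 0.156, lay below every value of *Grm4*. The order in the middle depends on the length used. With the longest transcript in place of all exons, *Homer3* (15.4) passed *Grm3* (14.8), and *Grm7* (9.74), *Homer1* (9.58) and *Homer2* (9.5) were almost level.

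**Figure D1:**
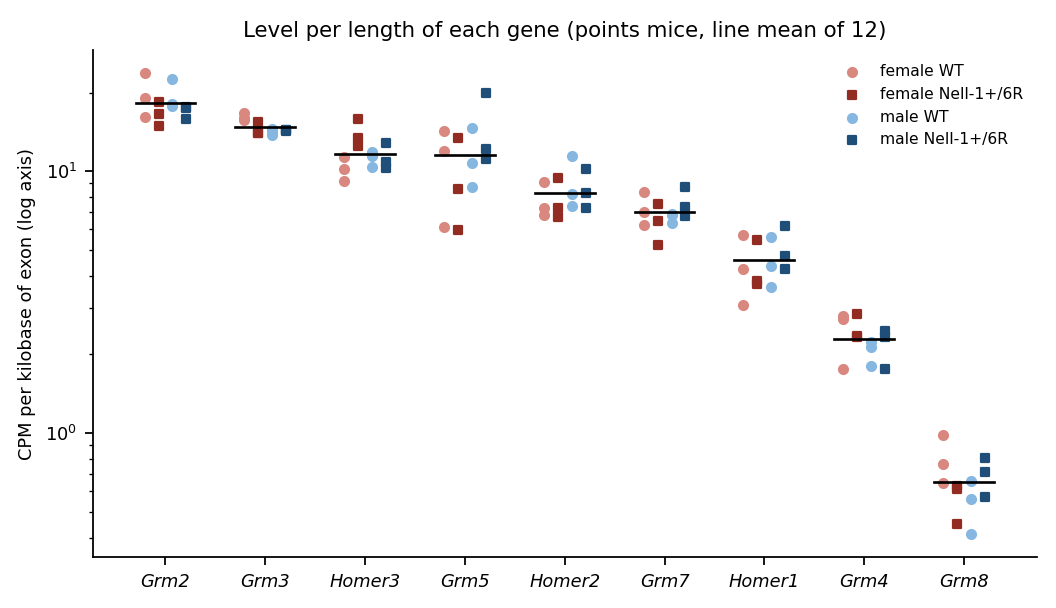
Level of each gene in each of the 12 mice, in CPM per kilobase of exon on a log axis, with points coloured by sex and genotype and a line at the mean of 12 mice. *Grm2* is highest at 18.2 and *Grm8* lowest at 0.652, and only the ranges of *Grm4* and *Grm8* stand clear of those above them.

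No receptor or scaffold gene passed the test for genotype. None of the 9 had an adjusted p under 0.05 (edgeR, all adjusted p = 1.00), where 0.039% of the 17937 genes tested did. None passed the thresholds of the study, an unadjusted p under 0.05 with a fold change over 1.5, which 1.46% of all genes did. *Grm2* and *Homer3*, 2 of 9, had an unadjusted p under 0.05, against 3.26% of all genes, and the same 2 of 9 had one with DESeq2 and with limma-voom, where no adjusted p was under 0.05 either. Of the 9 genes, 5 had a higher and 4 a lower estimate in *Nell-1+/6R* mice. Their log2 fold changes had a median of 0.01, against 0.00 over all genes. No gene of the 9 had genotypes that did not overlap in CPM, as 0.151% of all genes did. The 95% confidence intervals of the genotype fold change lay between 0.71 and 1.5 for every one of the 9. In whole tissue, fewer cells of a type and less RNA per cell cannot be told apart.

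**Figure D2:**
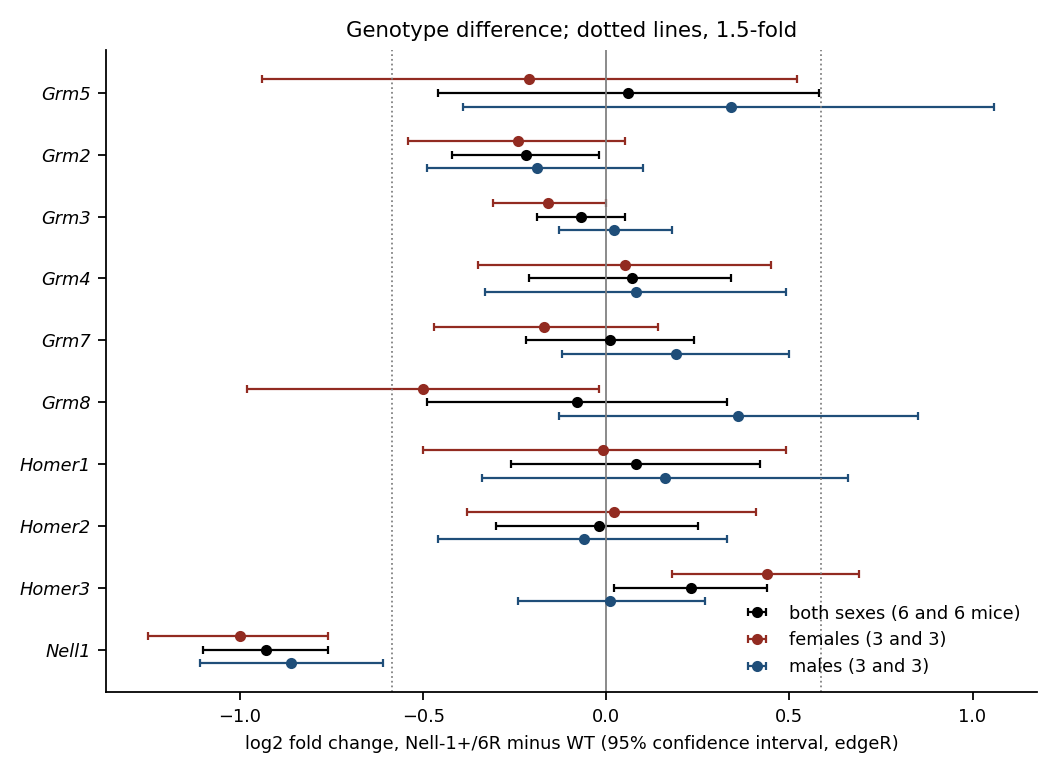
Log2 fold change of each gene, *Nell-1+/6R* minus WT, with its 95% confidence interval from edgeR, for both sexes together (black), females (red) and males (blue). For both sexes the intervals of *Grm2* and *Homer3* leave out 0 and the others do not, while *Nell1* lies at -0.93.

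*Grm5* (chromosome 7, 87583981 to 88135063, plus strand, GRCm38) was the most variable of the 9. In WT mice it ranged from 62.7 CPM through a median of 116.4 to 150.0 CPM, and in *Nell-1+/6R* mice from 61.3 through 119.8 to 203.5 CPM. The genotypes overlapped almost fully, with low and high mice in both. The log2 fold change of 0.06 had a standard error of 0.242 (edgeR, adjusted p = 1.00, 95% confidence interval -0.46 to 0.58). Within groups of the same sex and genotype its standard deviation was 0.52 on the log2 scale. Only 1.09% of the 9874 genes with a mean CPM of at least 10 had a larger one, and their median was 0.14. *Grm5* lies on the chromosome that carries *Nell1*, 36.7 megabases from the end of that gene.

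*Grm2* (chromosome 9, 106644534 to 106656109, minus strand), an autoreceptor that is prominent on the mossy fibres of dentate granule cells, had the lowest estimate for genotype among the 9. It ranged from 78.6 CPM through a median of 91.1 to 116.0 CPM in WT mice and from 72.9 through 83.5 to 89.7 CPM in *Nell-1+/6R* mice. The ranges overlapped, but all 6 *Nell-1+/6R* mice lay below the WT median and 2 of them below the lowest WT mouse. The mean of the WT mice was 95.6 ± 14.4 CPM and that of the *Nell-1+/6R* mice 82.3 ± 6.26 CPM (SD, n = 6 and 6, exact permutation test, two-sided, p = 0.0584). The log2 fold change was -0.22 ± 0.093 (SE; edgeR, unadjusted p = 0.0355, adjusted p = 1.00), with -0.24 in females and -0.19 in males. In males the WT mice (86.9 to 110.1 CPM) lay above the *Nell-1+/6R* mice (77.5 to 86.5 CPM), and in females they overlapped. In males 1 of the 9 genes, *Grm2*, had genotypes that did not overlap, against 10.4% of all genes, with 3 mice in each group. Without female WT replicate 2, the mouse with the highest value, it was -0.14, and the unadjusted p rose above 0.05 with any of 5 mice left out (edgeR, 0.0567 to 0.107). Of 6 dentate granule cell markers, *C1ql2* (log2 fold change -0.33, unadjusted p = 0.023) and *Pdzd2* (-0.30, unadjusted p = 0.0117) were lower in edgeR without passing adjustment, the list had a median of -0.23 against 0.00 over all genes, and its summed level was 243.2 to 351.7 CPM in the WT and 209.4 to 294.3 CPM in the *Nell-1+/6R* group. Within groups of the same sex and genotype, *Grm2* and the mean of these markers had a Pearson's r of -0.183 over 12 mice (Spearman's rho -0.189, exact permutation p = 0.684 and 0.631 from shuffling mice within those groups). The 9 genes were compared in this way with 13 marker lists, and 0 of 117 relations had an adjusted p under 0.05, for r or for rho, while 16 had an unadjusted p under 0.05 for r. With 1296 arrangements no p can be under 0.000772, so that a single relation could not have passed adjustment over 117. The 5 oligodendrocyte markers, with lower estimates in 5 of 5 and a median of -0.11 but none at an unadjusted p under 0.05 (edgeR), had an r of 0.834 with *Grm2* within groups (rho 0.825, exact permutation p = 0.01 and 0.00926, adjusted p = 0.234 for both). The part of granule cell or oligodendrocyte content in the *Grm2* value was not tested.

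*Grm3* (chromosome 5, 9485236 to 9725352, minus strand), which astrocytes express along with neurons, was the steadiest of the 9. It lay between 42.1 and 51.0 CPM in WT mice (median 46.0) and between 42.7 and 46.9 CPM in *Nell-1+/6R* mice (median 43.6). Its highest mouse was only 1.21 times its lowest, and 99.0% of the genes with a mean CPM of at least 10 had a larger spread within groups. The genotype difference was -0.07 ± 0.0542 on the log2 scale (SE; edgeR, adjusted p = 1.00). In females the values of WT mice (48.0, 48.8 and 51.0 CPM) lay above those of *Nell-1+/6R* mice (42.7, 42.9 and 46.9 CPM), and in males they overlapped. In females 3 of the 9 genes, *Grm3*, *Grm8* and *Homer3*, did not overlap between genotypes, against 6% of all genes, again with 3 mice in each group. The 6 astrocyte markers had a median log2 fold change of -0.01.

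With both sexes together, the group III receptors showed no genotype difference beyond their spread. *Grm4* (chromosome 17, 27422387 to 27513826, minus strand), a presynaptic receptor best known from cerebellar granule cells, was at 13.5 ± 2.68 CPM in WT and at 14.1 ± 2.14 CPM in *Nell-1+/6R* animals (SD, n = 6 and 6). *Grm7* (chromosome 6, 110645349 to 111567230, plus strand), a receptor of the active zone, was at 40.8 ± 4.45 and 41.2 ± 6.84 CPM. *Grm8* (chromosome 6, 27275121 to 28135146, minus strand), a presynaptic receptor with 44 to 160 counts in a mouse and the fewest of the 9, was at 6.65 ± 1.93 and 6.25 ± 1.2 CPM. The genotypes overlapped in all of them, with log2 fold changes of 0.07 (*Grm4*), 0.01 (*Grm7*) and -0.08 (*Grm8*) (edgeR, adjusted p = 1.00 for each). In female *Nell-1+/6R* replicate 3, whose cerebellar marker level was high, *Grm4* was at 17.1 CPM, the highest of the 12 mice, and *Grm7* at 44.0 CPM. The cerebellar markers and *Grm4* had a Pearson's r of 0.159 over the 12 mice (Spearman's rho -0.105, exact permutation p = 0.64 and 0.708). With *Grm7* the cerebellar markers had an r of 0.622 (rho 0.755, exact permutation p = 0.137 and 0.0131, adjusted p = 0.517 and 0.255, r = 0.792 without the 2 farthest mice). Outside that mouse the summed level of this list was mostly *Calb2*, at 13.1 to 31.6 CPM over the 12 mice, which interneurons of the hippocampus express too, and *Pcp2* and *Cbln3* were at no more than 0.871 and 0.792 CPM. These 3 were the genes tested of the 4 in the list. Taken alone, *Calb2*, *Pcp2* and *Cbln3* had r of 0.506, 0.553 and 0.547 with *Grm7*, and of -0.625, 0.168 and 0.276 with *Grm4*. *Grm4* had an r of 0.825 with the 5 striatal markers within groups (rho 0.881, exact permutation p = 0.00309 and 0.00694, adjusted p = 0.226 and 0.234, r = 0.672 without the 2 farthest mice), whose summed level was 34.3 to 48.9 CPM in the WT and 28.3 to 39.7 CPM in the *Nell-1+/6R* group. The part of cerebellar or striatal tissue in these values was not tested.

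*Homer1* (chromosome 13, 93303757 to 93405129, plus strand) ranged from 37.1 CPM through a median of 51.5 to 68.2 CPM in WT mice, and from 44.5 through 53.9 to 74.4 CPM in *Nell-1+/6R* mice. *Homer2* (chromosome 7, 81600481 to 81706925, minus strand), a long-form scaffold 30.7 megabases from the end of *Nell1*, ranged from 86.2 through 97.9 to 144.0 CPM and from 84.4 through 98.0 to 129.2 CPM. For neither gene did the genotypes separate, and each had low and high mice in both. The log2 fold changes were 0.08 ± 0.159 for *Homer1* and -0.02 ± 0.126 for *Homer2* (SE; edgeR, adjusted p = 1.00 for each).

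*Homer3* (chromosome 8, 70282880 to 70294361, plus strand), the scaffold typical of cerebellar Purkinje cells that the hippocampus also makes, had the highest estimate of the 9. WT mice ranged from 31.7 CPM through a median of 37.5 to 40.9 CPM and *Nell-1+/6R* mice from 35.5 through 43.6 to 54.4 CPM. Of the 6 *Nell-1+/6R* mice, 4 lay above the highest WT mouse and the other 2, both males, within the WT range. The mean of the WT mice was 37.0 ± 3.43 CPM and that of the *Nell-1+/6R* mice 43.5 ± 6.74 CPM (SD, n = 6 and 6, exact permutation test, two-sided, p = 0.0563). The log2 fold change was 0.23 ± 0.0988 (SE; edgeR, unadjusted p = 0.0367, adjusted p = 1.00). The unadjusted p rose above 0.05 with any of 6 mice left out (edgeR, 0.052 to 0.102), and the estimate was lowest, at 0.16, without female *Nell-1+/6R* replicate 2. The Purkinje cell gene *Pcp2* and the granule cell gene *Cbln3* of the cerebellum had log2 fold changes of 1.68 and 3.44 (edgeR, unadjusted p = 0.017 and 0.0179, adjusted p = 1 for each). Both were highest in female *Nell-1+/6R* replicate 3, where *Homer3* was at 46.1 CPM. Female *Nell-1+/6R* replicate 2, with *Homer3* at 54.4 CPM, had *Pcp2* at 0.733 and *Cbln3* at 0.163 CPM. Within groups *Homer3* and the cerebellar markers had an r of -0.196 (rho -0.112, exact permutation p = 0.738 and 0.83, r = 0.225 without the 2 farthest mice). The part of cerebellar tissue in the *Homer3* value was not tested. *Fibcd1*, 1 of 5 pyramidal cell markers, had a log2 fold change of 0.23 (edgeR, unadjusted p = 0.0167, adjusted p = 1), and the list had a median of 0.08.

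**Figure D3:**
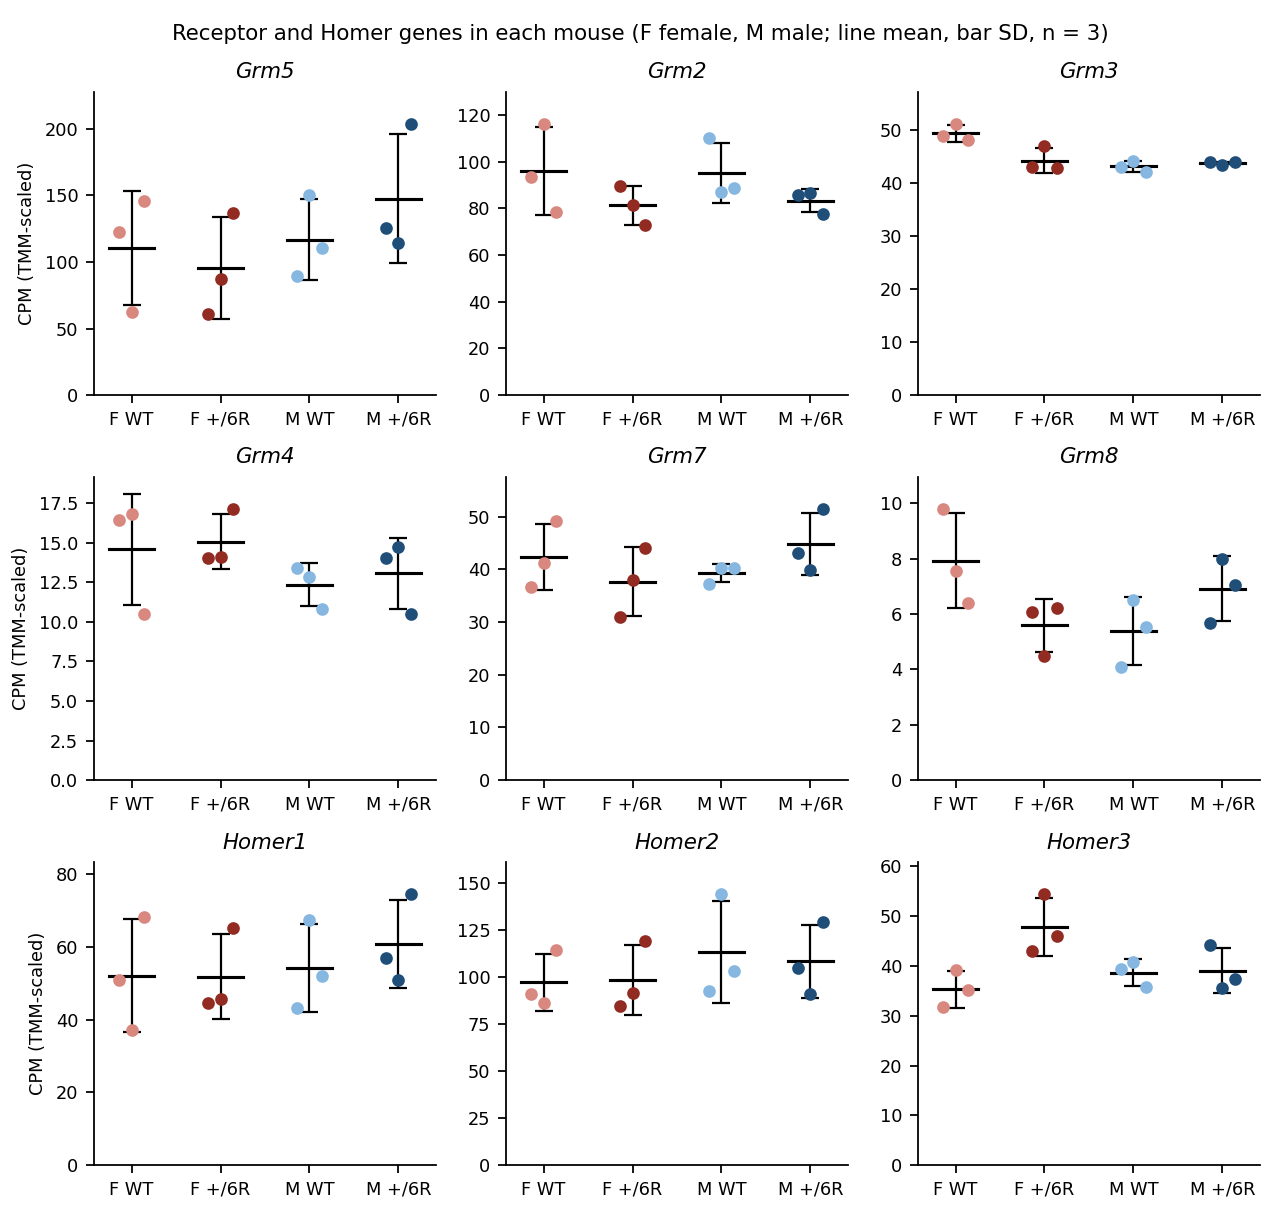
CPM of each gene in each mouse, scaled by TMM factors, with the mean (line) and SD (bar) of the 3 mice of each sex and genotype. *Grm5* spans 61.3 to 203.5 CPM with low and high mice in both genotypes, *Grm3* stays between 42.1 and 51.0 CPM, and *Homer3* is highest in the female *Nell-1+/6R* mice.

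The genotype effect was compared between the sexes in a model with 4 groups. No gene of the 9 had an adjusted p under 0.05 for the interaction (edgeR, lowest adjusted p = 0.987), nor did any other gene (0%). *Grm8* and *Homer3*, 2 of 9, had an unadjusted p under 0.05, against 3.09% of all genes, also with DESeq2. *Homer3* was at 31.7, 39.2 and 35.1 CPM in female WT mice and at 43.1, 54.4 and 46.1 CPM in female *Nell-1+/6R* mice. In males it was at 39.4, 40.9 and 35.8 CPM against 44.2, 35.5 and 37.5 CPM. Females of the 2 genotypes did not overlap and males did. The log2 fold change of *Homer3* was 0.44 ± 0.118 in females and 0.01 ± 0.119 in males, a difference of -0.43 ± 0.167 (SE; edgeR, unadjusted p = 0.0246, adjusted p = 0.987), and the unadjusted p was 0.05 or more with any of 5 mice left out (edgeR, up to 0.0721). *Grm8* was at 9.78, 7.57 and 6.41 CPM in female WT mice and at 6.06, 4.48 and 6.23 CPM in female *Nell-1+/6R* mice. In males it was at 4.08, 6.51 and 5.54 CPM against 5.68, 8.0 and 7.05 CPM. It was thus lower in every female *Nell-1+/6R* mouse than in any female WT mouse, with overlapping values and a higher mean in males. Its log2 fold change was -0.50 ± 0.221 in females (unadjusted p = 0.0409, adjusted p = 0.998) and 0.36 ± 0.226 in males (unadjusted p = 0.137), a difference of 0.86 ± 0.316 (SE; edgeR, unadjusted p = 0.0176, adjusted p = 0.987). The unadjusted p of *Grm8* rose above 0.05 without female WT replicate 1, male WT replicate 1 or male *Nell-1+/6R* replicate 2 (0.0558, 0.0525 and 0.0531 in edgeR). Within groups of the same sex and genotype *Grm8* had an r of 0.788 with the leptomeningeal markers (rho 0.846, exact permutation p = 0.00386 and 0.00463, adjusted p = 0.226 and 0.234 over 117 relations, r = 0.792 without the 2 mice farthest from the median) and of -0.808 with the markers of principal neurons (rho -0.839, exact permutation p = 0.00772 for both, adjusted p = 0.234 for both, r = -0.85 without the 2 farthest mice). The part of meningeal tissue in the *Grm8* values was not tested.

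Between the sexes themselves, 0 of 9 genes had an adjusted p under 0.05 (edgeR, against 0.0335% of all genes) and 0 of 9 an unadjusted one, against 4.72% of all genes. With DESeq2 and limma-voom it was also 0 of 9 at an unadjusted p. The estimates ran from -0.22 for *Grm4* to 0.36 for *Grm5*, male minus female, on the log2 scale.

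The partners of these receptors were read in 4 lists of 47 genes, all of which were tested. In edgeR, 0 of 47 had an adjusted p under 0.05 for genotype and 0 of 47 an unadjusted one, against 0.039% and 3.26% of all genes. Of 11 genes of the Gq branch used by the *Grm5* receptor (Gq proteins, phospholipase C, inositol trisphosphate receptors, the lipase that makes the endocannabinoid 2-arachidonoylglycerol, and TRPC channels), 8 had a higher and 3 a lower estimate, with a median log2 fold change of 0.05. Of 14 genes of the Gi/o branch (Gi/o proteins, adenylyl cyclases and GIRK potassium channels), 7 were higher and 7 lower, with a median of 0.00. The 10 scaffold genes that meet Homer at the postsynaptic density, among them the Shank and SAPAP families, were higher in 8 and lower in 2 cases, with a median of 0.06, and the 12 receptor partners and regulators, such as ELFN adhesion proteins, RGS proteins and receptor kinases, in 9 and 3, with one of 0.02. Over the 47 genes 32 estimates were higher and 15 lower, where 49.7% of all genes were higher. The median of all genes was 0.00, and the estimates of the 47 ran from -0.15 to 0.31.

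Several of the 9 genes shared a variation between mice of the same sex and genotype. It was measured on log2 CPM after the mean of each of the 4 groups had been removed, over 12 mice and 36 pairs of genes. P-values came from all 1296 arrangements that keep each mouse in its group (exact permutation test, two-sided), a choice made after the data had been seen, and were adjusted over the 36 pairs. *Grm5* and *Homer1*, receptor and scaffold of the same complex, had a Pearson's r of 0.949 (Spearman's rho 0.923, permutation p = 0.000772 for both, the smallest that these arrangements can give, adjusted p = 0.00695 for both), and r remained at 0.921 once the 2 mice farthest from the *Grm5* median were left out. *Grm5* lay lowest against its group in female WT replicate 2, by -0.73 on the log2 scale, and *Homer1* lay there at -0.44. Both lay highest in replicate 3 of the female WT, female *Nell-1+/6R* and male *Nell-1+/6R* groups and in replicate 2 of the male WT group. *Homer1* and *Homer2* had an r of 0.933 (rho 0.874, permutation p = 0.000772 and adjusted p = 0.00695 for both), and *Grm5* and *Homer2* one of 0.871 (rho 0.853, permutation p = 0.00154 and 0.00231, adjusted p = 0.0111 and 0.0139). Without the 2 mice farthest from the median of the first gene these were 0.911 and 0.885. *Grm7* had an r of 0.776 with *Homer2* (rho 0.734, permutation p = 0.0054 and 0.0154, adjusted p = 0.0324 and 0.0792). With *Grm5* and *Homer1* its r of 0.716 and 0.715 did not pass adjustment (rho 0.755 and 0.706, permutation p = 0.0571 and 0.0355 for r, adjusted p = 0.187 and 0.142 for r and 0.133 and 0.142 for rho). Without the 2 farthest mice the r of *Grm7* was 0.717 with *Homer2*, 0.759 with *Grm5* and 0.667 with *Homer1*.

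*Grm2* ran the other way. Its r was -0.925 with *Homer1* (rho -0.979) and -0.907 with *Grm5* (rho -0.937), each with a permutation p of 0.000772 and an adjusted p = 0.00695 for r and for rho. With *Homer2* it was -0.79 (rho -0.839, permutation p = 0.0108 and 0.00231), which passed adjustment for rho (adjusted p = 0.0139) but not for r (adjusted p = 0.0555). Without the 2 mice farthest from its median these were -0.874, -0.874 and -0.822, and with the group means left in they were -0.79, -0.66 and -0.57. In female WT replicate 2, where *Grm5* was at 62.7 CPM, *Grm2* was at 116.0 CPM, and in male *Nell-1+/6R* replicate 3, where *Grm5* was at 203.5 CPM, *Grm2* was at 77.5 CPM. Of the 36 pairs, 6 had an adjusted p under 0.05 for r and 6 for rho. The share over pairs of all genes was not computed. Other genes also followed *Grm5* closely, with a median r of 0.82 in the 973 genes poorest in G and C. The r of *Grm3* with *Homer3* did not pass (r = 0.749, rho = 0.671, permutation p = 0.0177 and 0.0563, adjusted p = 0.0796 and 0.184), fell to 0.532 without the 2 farthest mice and was -0.17 when the group means were left in. *Grm4* and *Grm8* were in none of the pairs that passed for r.

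**Figure D4:**
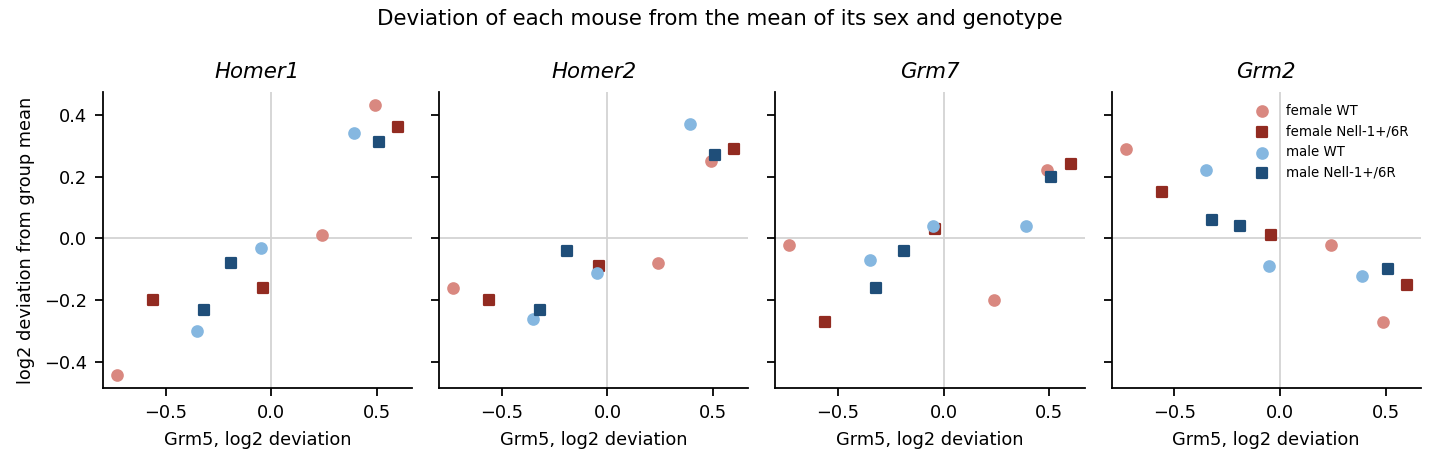
Deviation of each mouse from the mean of its sex and genotype in log2 CPM, for *Grm5* on the horizontal axis and *Homer1*, *Homer2*, *Grm7* or *Grm2* on the vertical axis. *Homer1* rises with *Grm5* (r = 0.949) and *Grm2* falls (r = -0.907), and mice of all 4 groups lie along both lines.

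The same variation ran through genes of like base composition. A base-composition index was formed for each mouse, the mean log2 CPM of the 973 genes poorest in G and C (under 41.95%) minus that of the 973 richest (over 58.28%), with the 9 genes left out. It ranged from -0.435 in female *Nell-1+/6R* replicate 1 to 0.3425 in male *Nell-1+/6R* replicate 3. Within groups it had an r of 0.943 with *Grm5*, 0.925 with *Homer1*, 0.883 with *Homer2*, 0.748 with *Grm7* and -0.848 with *Grm2* (12 mice, exact permutation within groups). The adjusted p over 9 relations was 0.00174 for r with each of *Grm5*, *Homer1*, *Homer2* and *Grm2* and 0.0889 with *Grm7*, and for rho, of the same sign, 0.0052 or less with the first 4 and 0.068 with *Grm7*. With *Homer3*, *Grm3*, *Grm4* and *Grm8* it had r of -0.183, -0.379, -0.23 and 0.312, none with an adjusted p under 0.05. The transcripts of the genes that moved up together are poor in G and C, with 36.9% for *Homer1*, 42.5% for *Grm5*, 44.4% for *Homer2* and 47.2% for *Grm7*, against a median of 50.2% over the genes with a mean CPM of at least 10. That of *Grm2* holds 56.9%. *Grm4* (61.7%) and *Homer3* (60.2%) are richer still and had r of 0.564 and 0.205 with *Grm2*, while *Grm8* (41.9%), as poor as *Grm5*, had an r of 0.212 with it, none of them with an adjusted p under 0.05. Across genes, which are not independent replicates, the median r with *Grm5* went from 0.82 in the 973 genes poorest in G and C to -0.68 in the 973 richest, and was 0.35 for genes of 46.5% to 48.4% and -0.32 for genes of 50.2% to 52.2%.

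**Figure D5:**
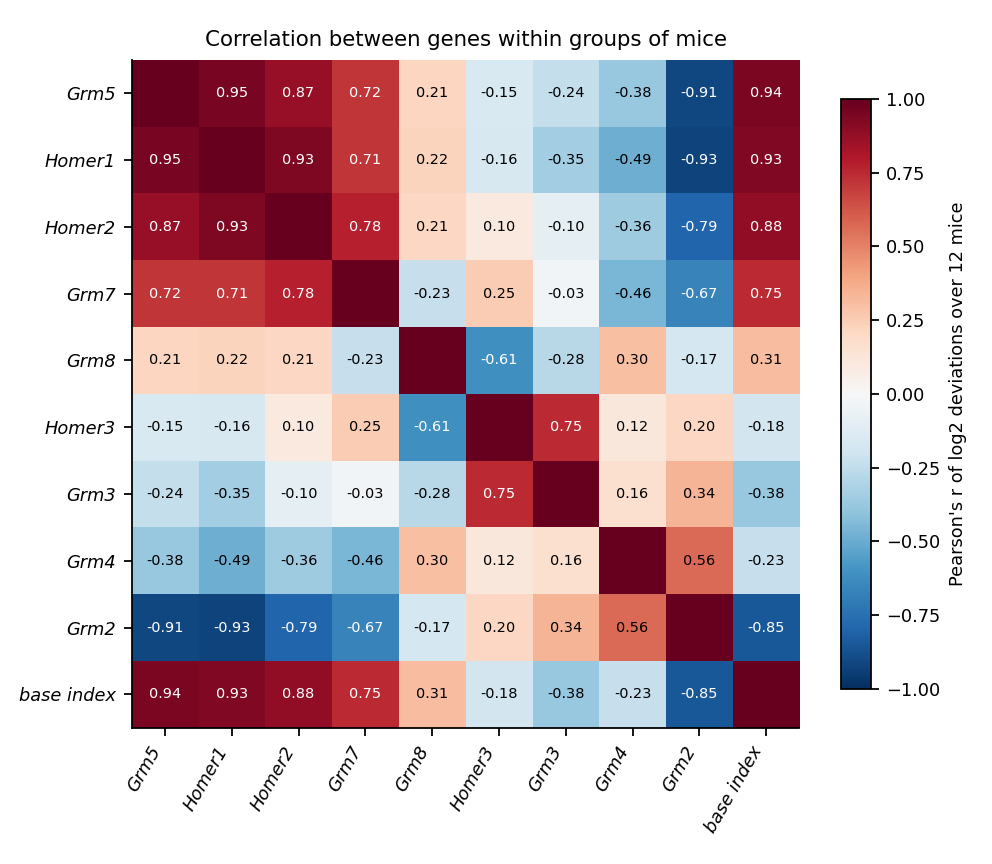
Pearson's r between the log2 deviations of the 9 genes and the base-composition index (base index) over 12 mice, from blue (-1) to red (1). *Grm5*, *Homer1*, *Homer2* and *Grm7* form a block of positive values with the index, with 0.715 as the lowest r among the genes, and *Grm2* is negative with all of them.

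The genotype estimates were refitted with this index as a covariate, an alternative chosen after the data had been seen. The standard error of *Grm5* fell from 0.242 to 0.0804 and its log2 fold change was 0.11 (95% confidence interval -0.06 to 0.29, edgeR, adjusted p = 0.927). That of *Homer1* was 0.12 ± 0.0681 and that of *Grm2* -0.23 ± 0.0583 (SE; edgeR, unadjusted p = 0.00142 and adjusted p = 0.671 for *Grm2*). None of the 9 passed adjustment in this fit either. With the index removed beside the group means, r was 0.61 between *Grm5* and *Homer1*, 0.65 between *Homer1* and *Homer2*, -0.70 between *Grm2* and *Homer1*, -0.61 between *Grm2* and *Grm5*, and -0.17 between *Grm2* and *Homer2*. It was 0.25 between *Grm5* and *Homer2*, 0.37 between *Grm7* and *Homer2*, 0.09 between *Grm7* and *Homer1*, 0.05 between *Grm5* and *Grm7* and 0.75 between *Grm3* and *Homer3*. The oligodendrocyte markers had r of -0.866 with *Grm5* and 0.834 with *Grm2* (exact permutation p = 0.00926 and 0.01, adjusted p = 0.234 for both over 117 relations, r = -0.793 and 0.745 without the 2 mice farthest from the median of the markers). With *Homer1*, *Grm7* and *Homer2* their r was -0.805, -0.803 and -0.664 (exact permutation p = 0.0131, 0.0262 and 0.0386, adjusted p = 0.255, 0.307 and 0.356, r = -0.673, -0.656 and -0.481 without the 2 farthest mice). The summed level of these markers over 5 genes was 3623.7 to 5951.1 CPM in the WT and 2852.3 to 6214.4 CPM in the *Nell-1+/6R* group. Across genes, r with *Grm5* had a Spearman's rho of -0.67 with the percentage of G and C and of 0.45 with transcript length. Whether base composition, transcript length, RNA quality or myelin content sets this axis was not tested.

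The genes most like each of the 9 over the 12 mice, by Pearson's r of log2 CPM among 9873 other genes with a mean CPM of at least 10 (9874 for *Grm8*), are given as a description. Among those nearest to *Grm5* were *Rabgap1l* and *Epm2aip1* (r = 0.988 each). *Homer1* was nearest to *Alg11* (0.971), *Dzip3* and *Cdc27*, and *Homer2* to *Skil* (0.961), *Atp2b1*, a calcium pump of the plasma membrane, and *Cyria*. *Grm7* was nearest to *Cyfip1* (0.964), *Cracd* and *Anks1b*, the first of which acts in the WAVE complex that builds branched actin. *Grm2* was nearest to *Crat* (0.932), *Lmna* and *Plcb3*, *Grm3* to *Map6* (0.88), *Trpc6* and *Acsl5*, and *Grm4* to *Msn* (0.794), *Galnt2* and *Polr1d*. *Grm8* was nearest to *Cdkl4* (0.878), *Usp4* and *Col6a1*, and *Homer3* to *Xrcc6* (0.867), *Mpi* and *Stk10*.

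Promoters are shown for 3 genes of the shared variation, *Homer1* and *Homer2*, which moved together, and *Grm2*, which moved against them, as RefSeq gives them for GRCm38.p6 from 250 bases before to 50 bases after the start of transcription. The table of promoters matched 7 of the 9 genes and did not match *Grm4* and *Grm5*, and the start nearest the 5′ end of the gene was taken where it listed several. Capitals mark the letters TGACG, the core of the cyclic AMP response element (whole element TGACGTCA), and GGGCGG, the GC box bound by Sp1, on either strand with overlaps counted.
Homer1, chr13:93303507-93303806, plus strand: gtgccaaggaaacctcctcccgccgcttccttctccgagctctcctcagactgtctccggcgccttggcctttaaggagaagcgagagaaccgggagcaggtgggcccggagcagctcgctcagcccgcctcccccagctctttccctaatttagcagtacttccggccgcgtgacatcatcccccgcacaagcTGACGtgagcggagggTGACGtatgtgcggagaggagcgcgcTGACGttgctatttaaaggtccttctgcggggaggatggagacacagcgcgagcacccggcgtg
Homer2, chr7:81706876-81707175, minus strand: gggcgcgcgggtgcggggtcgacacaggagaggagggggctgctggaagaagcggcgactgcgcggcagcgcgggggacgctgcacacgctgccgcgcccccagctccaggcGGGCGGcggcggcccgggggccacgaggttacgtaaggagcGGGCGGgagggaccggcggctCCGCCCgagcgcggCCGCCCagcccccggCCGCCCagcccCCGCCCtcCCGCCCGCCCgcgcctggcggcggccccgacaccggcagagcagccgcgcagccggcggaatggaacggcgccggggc
Grm2, chr9:106656060-106656359, minus strand: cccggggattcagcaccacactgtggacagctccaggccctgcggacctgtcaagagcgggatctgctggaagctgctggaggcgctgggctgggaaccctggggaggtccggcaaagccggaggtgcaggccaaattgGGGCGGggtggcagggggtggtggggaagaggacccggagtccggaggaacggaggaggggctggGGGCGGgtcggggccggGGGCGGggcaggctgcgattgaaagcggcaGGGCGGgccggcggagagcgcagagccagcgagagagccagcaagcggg
The *Homer1* promoter holds TGACG 3 times, beginning 56, 40 and 14 bases before the start, and no GC box. The *Homer2* and *Grm2* promoters hold 8 and 4 GC boxes and no TGACG. Among all 32851 promoters, 20.8% hold TGACG, 1.79% the whole element and 35.7% a GC box. The whole element is in none of the 3 windows. The promoters of *Homer1*, *Homer2* and *Grm2* are made of G and C at 63%, 82.3% and 72% (median of all promoters 52.7%). The second start that the table lists for *Homer1* has 44.7% and that for *Homer2* 52.3%. A match describes the letters in the window and not a site in use.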

How the data were processed

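RNA of the hippocampus of 12 mice was measured. According to the supplementary methods, the authors sequenced on an Illumina HiSeq, aligned the reads to mm10 with HISAT2 and counted them per gene with featureCounts (2.1.0 and 2.0.1 in the submitters' processing notes, while the methods give another featureCounts version), and they deposited raw read counts, not normalized or pooled. The strand setting of counting: not given in the sources used here. Antisense overlaps are therefore uncertain. All columns were matched to mice by short sample name, 0 unmatched.

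The 17937 genes that reached 0.2 CPM in 2 or more mice, the filter of the study, entered edgeR's quasi-likelihood test (edgeR 4.0.16, R 4.3.3) with TMM factors and sex and genotype as terms, and p-values were adjusted by the Benjamini-Hochberg method over all of them. The study itself names limma-voom and quasi-likelihood F-tests. Sex-specific effects came from a model with 4 groups. CPM per mouse was compared over the 924 splits of 12 mice (smallest two-sided p 0.00216). Correlations used log2 CPM (prior count 2) less the group means. Their p-values came from all 1296 arrangements of mice within groups, in place of 100000 unrestricted shuffles, which were the first choice but take no account of the 4 means removed and give p-values that are too small. The members and lists were chosen with earlier results of these data known: all 9 genes are named, *Nell1* as a check, and list genes where an unadjusted genotype p was under 0.05 or an adjusted sex or interaction p was. The 13 marker lists hold 67 genes: astrocyte, CA1 and CA3 pyramidal cell, CA2, cerebellum, choroid plexus, dentate granule cell, GABAergic interneuron, hippocampal principal neuron, leptomeninges, microglia, oligodendrocyte, striatum, and thalamus with habenula.

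Lengths and base composition came from GENCODE M21 (GRCm38), for 98.6% of the genes with a mean CPM of at least 10, and promoters from RefSeq GRCm38.p6. No pair of mice in a group agreed within counting noise. Nothing in the labels says more of the mice than that each is a separate sample, and p-values measure the spread between them. Alternatives were DESeq2 (1.42.0) size factors or test, upper-quartile factors, limma-voom (limma 3.58.1) with and without sex, edgeR without sex, a replicate block, 3 other filters, each mouse left out, the longest transcript as length and, after the data had been seen, the base-composition index. Values given for each sex alone are the contrasts of the model with 4 groups and not separate fits. Python 3.11.15, numpy 2.4.6, pandas 2.3.3, scipy 1.17.1 and matplotlib 3.10.9 made the tables and figures. An item among the genes most like the members is not reported here.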

Additional observations from a re-analysis of the deposited data

Results flagged for a closer look

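1 value stood apart by Dixon's test among the 18 groups of 6 mice examined, where chance flags about 1 in 20. *Grm3* was at 46.9 CPM in female *Nell-1+/6R* replicate 2, above the other 5 *Nell-1+/6R* mice by 0.702 of the range of that genotype, beyond the 95% limit of that test. The same mouse had the highest *Homer3* of the 12. The value lies within the range of the WT mice (42.1 to 51.0 CPM).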

How the results depend on the processing

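No alternative gave a receptor or scaffold gene an adjusted p under 0.05 for genotype, sex or interaction. For genotype over both sexes, none took one of the 9 past 1.5-fold with an unadjusted p under 0.05. The 2 genes at an unadjusted genotype p under 0.05 were *Grm2* and *Homer3* in all 11 alternatives with 12 mice, and 0 to 2 genes with a mouse left out (0 without female *Nell-1+/6R* replicate 2 or 3). Signs near 0 were not stable. With a mouse left out the log2 fold change ran from -0.02 to 0.12 for *Grm4*, -0.10 to 0.20 for *Grm5*, -0.06 to 0.08 for *Grm7*, -0.20 to 0.05 for *Grm8*, -0.01 to 0.19 for *Homer1* and -0.10 to 0.07 for *Homer2*, and kept its sign at -0.27 to -0.14 for *Grm2*, -0.08 to -0.05 for *Grm3* and 0.16 to 0.29 for *Homer3*. In females alone it was opposite to the value over both sexes for *Grm5* (-0.21), *Grm7* (-0.17), *Homer1* (-0.01) and *Homer2* (0.02), and in males alone for *Grm3* (0.02) and *Grm8* (0.36). With the group means left in, the correlation of *Grm3* and *Homer3* was -0.17, that of *Grm2* with *Grm5* -0.66, with *Homer1* -0.79 and with *Homer2* -0.57, and that of *Grm7* and *Homer2* 0.66, while the other 5 of the 10 ran from 0.69 to 0.93. The causes were not tested. Same-numbered mice of the 2 genotypes share only a number (correlations of their deviations -0.59 to 0.56 over 6 pairs), and with the replicate block 0 of the 9 genes were called and 2 had an unadjusted p under 0.05, while 9 genes of all were called against 7. DESeq2 and the fit with the index each called 13 of all genes. The number of genes past 1.5-fold with an unadjusted p under 0.05 was 261, with 170 for DESeq2, 110 for filterByExpr, 82 when 6 or more mice had to reach 1 CPM, 339 with no filter, 290 with the index and 202 to 400 with a mouse left out (400 without female *Nell-1+/6R* replicate 1). Unrestricted shuffles passed 10 of 36 pairs for r against 6 within groups, 5 of 9 index relations against 4 and 7 of 117 marker relations against 0. *Grm8* had the fewest counts of the 9, with 44 to 160 in a mouse, and the part of depth in its standard error was not tested.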
